A study of Mus musculus with 35 samples.

Results

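The transcripts described here are those of the mitochondrial genome: every row of the gene count table whose symbol begins with mt-, 35 of 55011 rows. They comprised 13 protein-coding genes and 22 tRNA genes of the 37 genes annotated on mouse chromosome M. The 2 rRNA genes, mt-Rnr1 and mt-Rnr2, were not analysed here. Counts came from RNA sequencing of regulatory T cells (Tregs), CD4+ T cells that restrain immune responses, collected from visceral adipose tissue (VAT, 17 libraries) and from spleen (18 libraries). All donors were wild-type C57BL/6 males, retired breeders older than 35 weeks, housed under 12 h of light and 12 h of darkness. Both tissues were sampled at 0, 4, 8, 12, 16 and 20 h of Zeitgeber time (ZT, counted from lights on), with 3 libraries per tissue and time and 2 for VAT at ZT20. Each library was made from 1000 cells that had passed a sort for CD4 and CD25 in 2 rounds, so Foxp3 itself was not part of the gate. Whether replicate letters stand for separate mice is not stated in the labels. The p-values therefore reflect only how far these libraries varied, and that variation may be technical. The study set the daily course of Treg transcripts in fat beside that in a lymphoid organ.

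The mitochondrial genome is a small circle whose strands are each transcribed as long precursors. These are cut apart largely at the tRNAs that lie between the other genes. Most of the protein-coding messenger RNAs receive a short poly(A) tail. The messenger RNAs encode subunits of respiratory complexes I, III and IV and of the ATP synthase, while the rRNAs and tRNAs serve the mitochondrial ribosome. Transcription, processing and decay depend on proteins encoded in the nucleus, and Tregs are known for their use of oxidative phosphorylation. Stretches of mitochondrial DNA have also been copied into the nuclear chromosomes during evolution, and a read from such a stretch can match both places.

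Library depth ran from 2178238 to 6260185 counts in VAT and from 2069319 to 5328695 counts in spleen. Foxp3, the transcription factor that defines Tregs, averaged 711.3 ± 67.22 CPM in the 17 VAT libraries and 520.9 ± 55.96 CPM in the 18 spleen libraries (mean ± SD). CPM stands for the library-size-scaled count (per-million units) after TMM factors, which even out differences in library make-up. No marker of the 6 fixed for Tregs was at 0 in all libraries of a tissue. Il2ra, Ctla4 and Ikzf2 were higher in every VAT library than in any spleen library, and Cd4 had the higher mean in VAT. Cd3e went the other way, at 127.1 to 222.7 CPM in VAT and 257.6 to 422.4 CPM in spleen. The summed level of 5 B cell markers was 93.6 to 302.5 CPM in VAT and 1197 to 3084 CPM in spleen. Fos, a transcript that responds to tissue dissociation, ranged over 4559 to 8077 CPM in VAT libraries and 2.75 to 33.11 CPM in spleen libraries. The 5 macrophage or monocyte markers summed to 6.94 to 16.99 CPM in VAT and 20.68 to 83.59 CPM in spleen, and the 3 endothelial markers to 22.13 to 52.75 CPM in VAT and 156.8 to 339.8 CPM in spleen. No marker of these 3 lists was at 0 in all libraries of a tissue. These levels and the tissue of origin moved together, and their part in the mitochondrial results was not tested. Handling and tissue cannot be told apart in this design.

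The mitochondrial counts came from a few genes. Over all libraries the 35 rows held 1868890 counts, of which 1865932 fell on protein-coding rows and 2958 on tRNA rows. mt-Co1, the catalytic core subunit of complex IV (chromosome M, 5328 to 6872, GRCm38), alone held 1274735 counts, or 68.21%. mt-Nd1, a membrane subunit of complex I (2751 to 3707), held 10.31%, mt-Nd5 (11742 to 13565) 7.83%, and mt-Cytb, the cytochrome b of complex III (14145 to 15288), 7.18%. mt-Nd4 (10167 to 11544) and mt-Nd2 (3914 to 4951), both of complex I, held 4.26% and 1.70%. Together these 6 genes made up 99.36 to 99.63% of the mitochondrial counts of a VAT library and 99.39 to 99.56% of those of a spleen library. mt-Co1 led in every library, and mt-Nd1 came second in 17 of 17 VAT libraries. In spleen mt-Nd5 came second in 11 libraries and mt-Nd1 in 7.

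A block of the genome was almost without counts. From mt-Td to mt-Nd4l (chromosome M, 6942 to 10173, 3232 bases) lie 10 of the rows, among them mt-Co2 and mt-Co3, the other mitochondrially encoded subunits of complex IV, and mt-Atp6 and mt-Atp8 of the ATP synthase. These 10 rows held 547 counts over 35 libraries, and 19 without mt-Nd3, a small complex I subunit. mt-Co2 had 2 counts, mt-Co3 had 5 and mt-Atp6 had 7, while mt-Atp8 and mt-Nd4l had 0 in all 35 libraries. A count of 0 allows a level of up to 0.0227 CPM over all libraries, taking 3 counts as the limit and covering counting error only. This limit holds only for reads that the counting could assign to the row, and sets no bound on RNA whose reads were not counted. The other 25 rows held 1868343 counts.

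Of the same block, mt-Co2, mt-Atp6, mt-Co3, mt-Nd3 and mt-Nd4l have near-perfect annotated copies on chromosome 1. Pseudogenes of mt-Co1, mt-Co2, mt-Atp6, mt-Co3, mt-Nd3, mt-Nd4l and mt-Nd4 follow one another there in the order of the mitochondrial genes, on the minus strand between bases 24611535 and 24616197 (GRCm38). The copy of mt-Co2, Gm28661, equals it at 681 of 681 aligned bases. Gm10925 equals mt-Atp6 at 678 of 678 bases, Gm28437 equals mt-Co3 at 783 of 783, and Gm28438 equals mt-Nd3 at 344 of 345. A longer copy of mt-Co1 on chromosome 2, Gm13340, equals it at 1508 of 1545 bases. Pairs of mt-Co2 and mt-Co1 with their copies are printed to show an identical copy beside one with differences, at reads of 25 nt. Each is a stretch of 60 bases from the GENCODE M21 transcripts, 5′ to 3′, with capitals at the bases where the mitochondrial gene and its copy differ. The mt-Co1 stretch was picked for holding the most differences from Gm13340, so the rest of that copy is more alike. The mt-Co2 stretch was taken at a set position. The first pair covers chrM:7043-7102 on the plus strand and chr1:24615476-24615535 on the minus strand, and the second covers chrM:5787-5846 on the plus strand and chr2:22589129-22589188 on the minus strand.
mt-Co2: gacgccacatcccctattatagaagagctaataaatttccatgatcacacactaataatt
Gm28661: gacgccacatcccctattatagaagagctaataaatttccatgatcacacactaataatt
mt-Co1: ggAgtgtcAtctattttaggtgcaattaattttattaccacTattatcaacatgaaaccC
Gm13340: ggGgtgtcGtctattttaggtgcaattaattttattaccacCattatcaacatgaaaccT

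To set counts beside sequence sharing, every stretch of 25 bases of each gene was looked up in all annotated nuclear transcripts. No such stretch of mt-Nd1 was shared, against 13% of mt-Cytb, 14.9% of mt-Nd6, 18.2% of mt-Nd2 and 21.3% of mt-Nd5. mt-Nd4 shared 62.9% and mt-Co1 69.7%. The 5 rows mt-Nd3 (98.1%), mt-Nd4l (98.9%), mt-Atp6 (99.5%), mt-Co3 (99.9%) and mt-Co2 (100%) shared nearly all of their length and held 0 to 528 counts each. mt-Atp8 shared 11.7% with annotated transcripts and held 0 counts; it overlaps mt-Atp6 by 43 bases. The 16 annotated nuclear copies that shared at least 50 stretches held 1952 counts in all, 1600 of them on Gm13340. How the authors' counting treated reads that match several places is not given in the sources used here. Its part in the low rows was not tested.

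**Figure D1:**
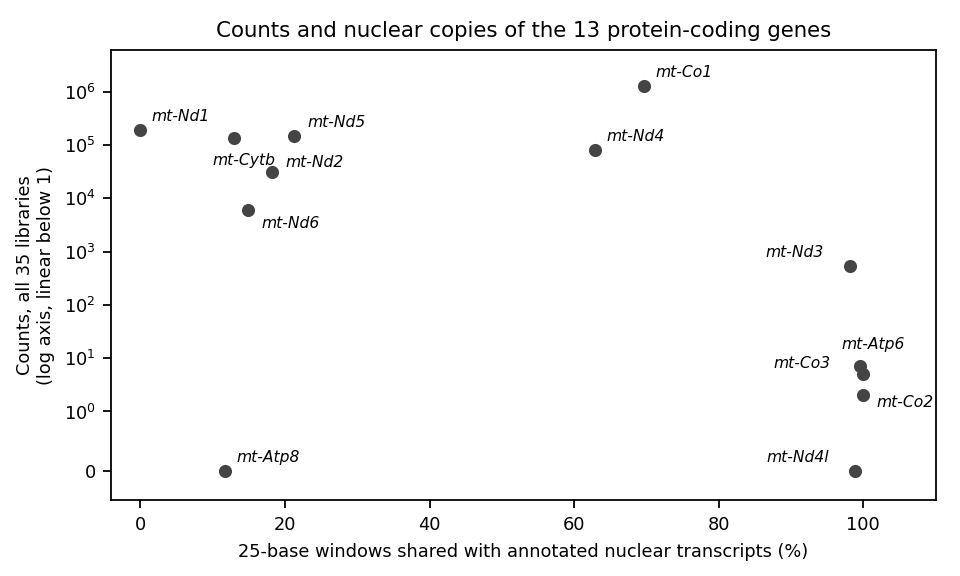
Counts summed over 35 libraries (vertical, log axis, linear below 1) of the 13 protein-coding mitochondrial genes against the percentage of their 25-base stretches that also occur in an annotated nuclear transcript (horizontal). The 5 genes sharing 98.1% or more hold 528 counts or fewer, and mt-Co1 at 69.7% holds 1274735.

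The tRNA rows were sparse. The libraries were primed with oligo-dT, and mature tRNAs carry no poly(A) tail. Of 22 rows, 8 were at 0 in all libraries, 9 held 1 to 11 counts and 5 held more. mt-Tl1, the leucine tRNA that lies between mt-Rnr2 and mt-Nd1 (chromosome M, 2676 to 2750), was the only one with a mean of at least 10 counts a library, at 57.97. mt-Tf and mt-Tv, the phenylalanine and valine tRNAs at the start of the genome (1 to 68 and 1025 to 1093), had means of 9.31 and 9.71 counts. Both fell under the mean of 10 set for naming a tRNA and are named because they passed the filter on low counts, a choice made after their values were seen. All 3 border an rRNA gene on the plus strand. The sequence of mt-Tl1 is shown because its row held the most counts of the tRNA rows.
mt-Tl1: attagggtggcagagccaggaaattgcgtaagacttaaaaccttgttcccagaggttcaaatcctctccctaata

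The mitochondrial share of the library was lower in VAT than in spleen. It was 0.884% in the lowest, 1.027% in the median and 1.887% in the highest VAT library, against 1.301%, 1.62% and 2.201% in spleen. These are shares of raw library totals. Means were 1.12 ± 0.255% in VAT (SD, n = 17) and 1.726 ± 0.284% in spleen (SD, n = 18). Of the 17 VAT libraries, 15 lay below the lowest spleen library, and at each of the 6 times every VAT library lay below every spleen library of that time. The exceptions to the first statement were both VAT libraries of ZT20, at 1.887% and 1.469%. Counting error was small beside this spread, with a 95% Wilson interval of 1.873 to 1.9% for the highest VAT library, which covers counting error only. After TMM scaling the tissues lay closer: the summed members averaged 12778.3 ± 3338.4 CPM in VAT and 15524.4 ± 2906.6 CPM in spleen (SD), and the libraries were apart, with VAT lower, at ZT8 and ZT12 alone. At ZT20 the scaled VAT mean was the higher one, at 20358.4 CPM, against 19114.2 CPM in spleen. As a sum over genes chosen for description, neither measure was given a test. The 10 most abundant nuclear genes held 10.67 to 15.95% of counts in VAT libraries and 7.264 to 10.08% in spleen libraries. Their part in the mitochondrial share was not tested. In these bulk libraries fewer cells with many mitochondria, less mitochondrial RNA per cell and more RNA from other genes cannot be told apart.

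**Figure D2:**
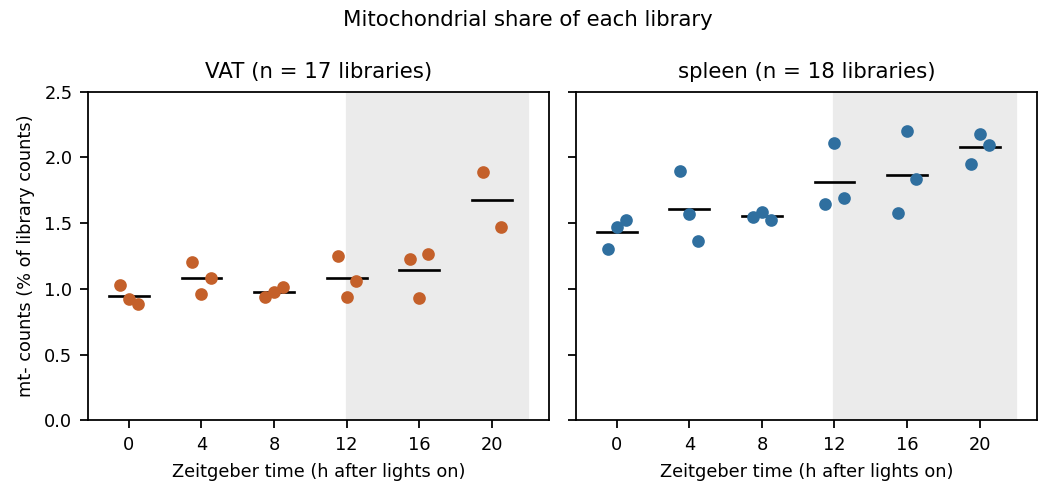
Counts of all mt- rows as a percentage of library counts (vertical) by Zeitgeber time (horizontal) in VAT (left) and spleen (right). Points are libraries, black lines are group means, and grey marks the dark phase. The VAT means run from 0.944% at ZT0 to 1.678% at ZT20 and the spleen means from 1.433% to 2.077%.

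For single genes, the VAT groups of all 6 times were averaged and set against the averaged spleen groups. The test was edgeR's quasi-likelihood test with Benjamini-Hochberg adjustment over all 15910 genes, and the threshold was an adjusted p of 0.05. Of the 35 members 11 passed the filter on low counts and were tested. Of these, 6 were lower in VAT and 1 was higher. The background is high in this contrast: 62.2% of all genes tested were called, 33.8% lower and 28.4% higher in VAT. The median log2 fold change was -0.35 over the 11 members and -0.1 over all genes.

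Among the complex I subunits, mt-Nd5 had the largest difference. Its level was 591.3, 757.5 and 1290.4 CPM in the lowest, median and highest VAT library, against 1048.4, 1360.6 and 1853.6 CPM in spleen. Of the 17 VAT libraries, 16 lay below all 18 spleen libraries, and the tissues did not overlap at any of the 6 times. The log2 fold change was -0.85 ± 0.07 (SE), with an adjusted p of 3.96e-14 by edgeR's quasi-likelihood test.

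mt-Nd4, which like mt-Nd5 forms part of the proton-pumping membrane arm of complex I, was at 325.3, 417.3 and 857.7 CPM in VAT and at 574.3, 692.5 and 955.7 CPM in spleen (lowest, median and highest library). Of the VAT libraries, 15 of 17 lay below all spleen libraries, and at 5 of 6 times the tissues did not overlap. The log2 fold change came to -0.66 ± 0.06 (edgeR adjusted p = 1.13e-11).

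mt-Nd6 is the only protein-coding gene on the minus strand (chromosome M, 13552 to 14070) and encodes another membrane subunit of complex I. It was at 24.93, 36.27 and 54.29 CPM in VAT and at 39.17, 58.37 and 75.24 CPM in spleen. Its log2 fold change was -0.56 ± 0.09 with an edgeR adjusted p of 1.97e-06, and 11 of 17 VAT libraries lay below all spleen libraries. It overlaps mt-Nd5 by 14 bases on the other strand, and the strand setting of the counting is not given in the sources used here, so reads of mt-Nd6 and of antisense RNA cannot be told apart. The libraries were primed with oligo-dT, and whether mt-Nd6 RNA carries a poly(A) tail was not examined.

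mt-Nd2 averaged 208.2 ± 68.9 CPM in VAT and 273.4 ± 68.15 CPM in spleen, a log2 fold change of -0.37 ± 0.1 with an edgeR adjusted p of 0.00161. mt-Nd1 went the other way, with 1565.3 ± 349.9 CPM in VAT and 1388.1 ± 318.9 CPM in spleen, with a log2 fold change of 0.21 ± 0.08 and an edgeR adjusted p of 0.0329. Its libraries overlapped: the range was 1064.8 to 2325.7 CPM in VAT and 988.2 to 1930.7 CPM in spleen, and the VAT mean was higher at 4 of 6 times. The call was lost without the ZT20 libraries (0.17, adjusted p = 0.124), and also without any of 7 single libraries: VAT ZT0 A, VAT ZT12 A, spleen ZT0 A, spleen ZT4 D, spleen ZT12 D, spleen ZT16 A and spleen ZT20 A. mt-Nd3 had 233 counts in VAT and 295 in spleen, with a log2 fold change of -0.11 ± 0.26 (edgeR adjusted p = 0.74).

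mt-Cytb, the one mitochondrially encoded subunit of complex III, had 474.7, 643.9 and 2023.1 CPM in the lowest, median and highest VAT library, against 854.3, 1169.2 and 1868.4 CPM in spleen. The highest value of both tissues was that of VAT ZT20 A, and 15 of the 17 VAT libraries lay below every spleen library. The log2 fold change was -0.82 ± 0.1, with an edgeR adjusted p of 2.18e-08. It ranged from -0.92 to -0.75 when each library was left out in turn.

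mt-Co1 differed little between the tissues. It was at 6836.7, 8024.4 and 15807.8 CPM in VAT and at 7620.2, 9476.5 and 13621 CPM in spleen, so that the ranges overlapped widely. The log2 fold change of -0.18 ± 0.06 passed the threshold (edgeR adjusted p = 0.00684) and lay near the median of -0.1 over all genes. The 3 tRNA rows tested did not pass: mt-Tl1 had a log2 fold change of 0.24 ± 0.13 (adjusted p = 0.112), mt-Tv -0.35 ± 0.25 (0.217) and mt-Tf 0.08 ± 0.26 (0.827), all by edgeR's quasi-likelihood test. mt-Tl1 ranged over 7.9 to 28.67 CPM in VAT libraries and 7.21 to 20.85 CPM in spleen libraries.

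**Figure D3:**
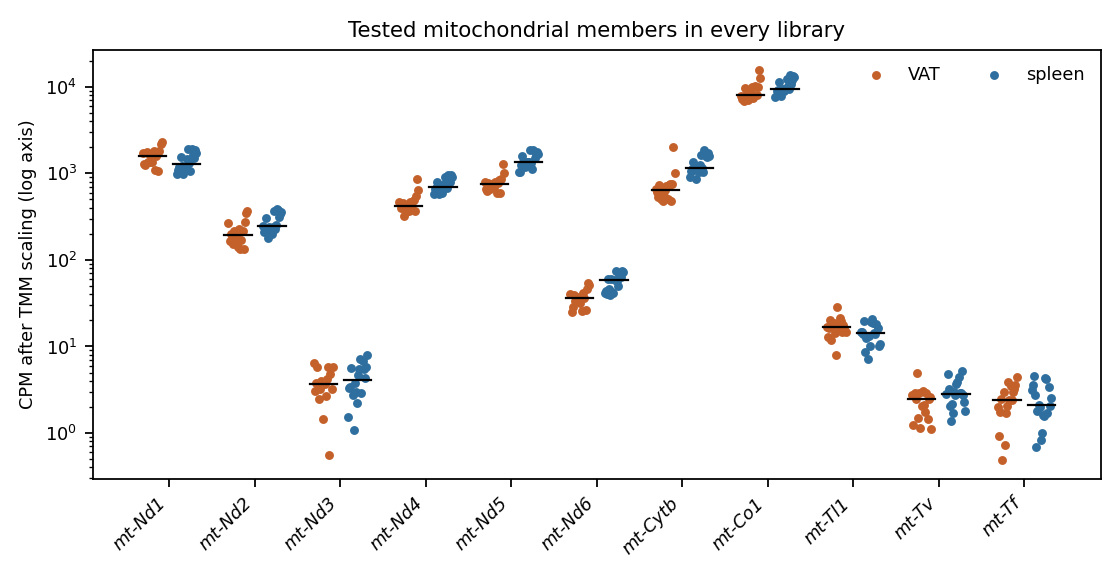
Level in every library, in CPM after TMM scaling on a log axis, of the 11 members tested, with VAT left of spleen for each gene; black lines are medians. mt-Nd5, mt-Cytb and mt-Nd4 sit lower in VAT with 15 or 16 of 17 libraries below all spleen libraries, while mt-Co1 and mt-Nd1 overlap.

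The direction of small differences depended on the scaling. When libraries were scaled by their totals alone, the median over all genes tested shifted by -0.35, to a log2 fold change of -0.45. mt-Nd1 then had -0.14 (edgeR adjusted p = 0.112), and the 6 genes lower in VAT remained lower, from -1.19 for mt-Nd5 to -0.53 for mt-Co1. A change of scaling moves all genes by nearly the same amount, so the distance of a member from the median of all genes is fixed by construction. Over TMM factors, library totals and the mitochondrial total, mt-Nd5 lay at -0.75 to -0.74 log2 units from the median, mt-Cytb at -0.72 to -0.71, mt-Nd4 at -0.56 to -0.55 and mt-Nd1 at 0.31 to 0.32.

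The make-up of the mitochondrial counts differed between the tissues. With each library's mitochondrial total as its size, 4 of the 11 members were lower in VAT and 3 were higher, against 59.2% of all genes called. mt-Nd5 (-0.59), mt-Cytb (-0.57), mt-Nd4 (-0.4) and mt-Nd6 (-0.3) were lower, and mt-Nd1 (0.47), mt-Tl1 (0.49) and mt-Co1 (0.08) were higher, with edgeR adjusted p-values from 3.44e-14 to 0.0178. mt-Nd5 made up 5.59 to 6.84% of the mitochondrial counts in VAT libraries and 7.94 to 10.15% in spleen libraries, with no overlap. mt-Nd4 made up 3.14 to 4.1% in VAT and 4.41 to 5.19% in spleen, again with no overlap. mt-Nd1 made up 9.58 to 14.49% in VAT and 7.71 to 10.03% in spleen, and the tissues were apart at all 6 times. mt-Co1 held 70.28 ± 1.97% in VAT and 66.65 ± 1.34% in spleen (SD).

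Ratios between genes of the same library show this without any scaling. There were 0.438 to 0.597 counts of mt-Nd5 for each count of mt-Nd1 in VAT libraries and 0.930 to 1.189 in spleen libraries. For each count of mt-Cytb there were 1.069 to 2.772 counts of mt-Nd1 in VAT and 0.979 to 1.171 in spleen, and 16 of 17 VAT libraries lay above all spleen libraries. The exception was VAT ZT20 A, at 1.069. The 2 libraries of VAT at ZT20 thus differed in this ratio more than the spleen libraries did among themselves, with mt-Cytb at 8.96% of mitochondrial counts in VAT ZT20 A and 5.54% in VAT ZT20 C. A ratio within a library shows unequal change, not which gene changed.

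**Figure D4:**
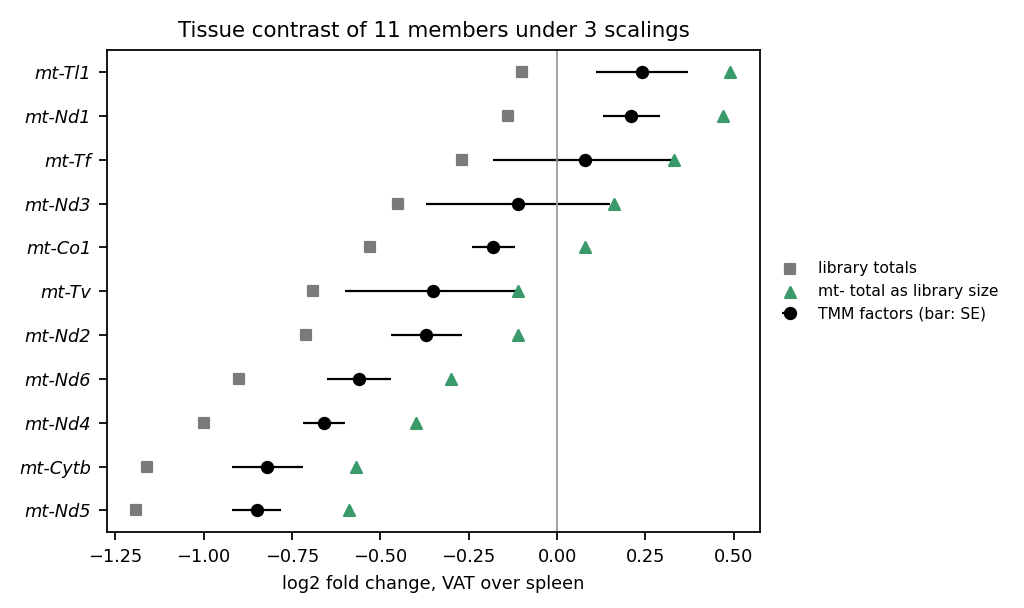
Log2 fold change of VAT over spleen (horizontal) for the 11 members tested under 3 scalings: TMM factors with SE bars, library totals, and the mitochondrial total of each library as its size. mt-Tl1 and mt-Nd1 lie highest and mt-Nd5 lowest under all 3, and the whole set shifts with the scaling.

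Levels per length kept nearly the same order in both tissues. Per kilobase of transcript, mt-Co1 was at 5811.5 ± 1519.9 CPM in VAT and 6688.4 ± 1208.7 in spleen. mt-Nd1 was at 1635.7 ± 365.6 CPM per kilobase in VAT and 1450.5 ± 333.2 in spleen, and mt-Cytb at 634.1 ± 315.1 in VAT and 1125.5 ± 260.7 in spleen. mt-Nd5 followed at 424.7 ± 94.19 in VAT and 779 ± 141.2 in spleen, mt-Nd4 at 334.7 ± 93.15 and 536.5 ± 96.1, mt-Nd2 at 200.5 ± 66.37 and 263.4 ± 65.65, and mt-Nd6 at 71.1 ± 16.38 and 107.3 ± 24.6, with VAT first in each pair. The ranges of mt-Nd1 (1032.6 to 2017.4 in spleen) and mt-Cytb (746.8 to 1633.2 in spleen) overlapped in both tissues. Those of mt-Nd5 and mt-Nd4 also overlapped in both. The part of nuclear copies in these levels was not tested.

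Over the day the 8 protein-coding members tested had their highest mean at ZT20 in both tissues. The lowest mean was at ZT0 for 3 and at ZT8 for 5 of them in VAT, and at ZT0 for 7 and at ZT8 for 1 in spleen. mt-Co1 had means of 7312.9 ± 472.5 CPM at ZT0 and 14254.7 ± 2196.4 CPM at ZT20 in VAT (SD, n = 3 and 2), a ratio of 1.949. In spleen it had 8656.4 ± 905.1 CPM at ZT0 and 12764 ± 687.7 CPM at ZT20 (SD, n = 3 each), a ratio of 1.475. In VAT both ZT20 libraries lay above every earlier library for 7 of the 8 genes, the exception being mt-Nd3, which averaged 15.09 counts a library. How many of all genes tested had either pattern was not counted, so neither count marks the members out. The TMM factors of VAT ZT20 A and C, 0.8393 and 0.8123, were the lowest of that tissue, against at least 0.8562 in the others. A low factor raises every scaled level of its library. The spleen means of mt-Nd4 were 634.7 CPM at ZT8, 789.2 at ZT12, 838.5 at ZT16 and 883 at ZT20.

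Each tissue was then fitted with a 24 h cosine and sine. In VAT 1 of the 11 members passed edgeR's quasi-likelihood test, mt-Nd4, beside a background of 1.88% of all genes. It had 461.9, 397.1 and 406.6 CPM at ZT0, 355.2, 414.2 and 372.1 CPM at ZT8, 488.1, 368.8 and 549 CPM at ZT16, and 857.7 and 647.1 CPM at ZT20. Its peak-to-trough amplitude was 0.68 ± 0.15 log2 units with a fitted peak at ZT19.06 (edgeR adjusted p = 0.0278). The call was lost without the ZT20 libraries (amplitude 0.3, adjusted p = 0.673), with library totals (0.57, 0.0598), with the mitochondrial total as library size (0.12, 0.725), with VAT fitted alone (0.66, 0.119) and with a replicate block (0.68, 0.0856). It was also lost without any one of VAT ZT4 C, VAT ZT8 B, VAT ZT8 D, VAT ZT20 A (amplitude 0.45) and VAT ZT20 C.

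The other members of VAT gave amplitudes of 0.83 ± 0.2 for mt-Nd2 (edgeR adjusted p = 0.0503), 0.92 ± 0.25 for mt-Cytb (0.0829) and 0.57 ± 0.16 for mt-Co1 (0.0954), with fitted peaks at ZT20.28, ZT19.59 and ZT18.69. At an unadjusted p of 0.05, 5 of 11 members passed in VAT, where 17.5% of all genes did. Without VAT ZT0 C 4 members passed, beside 6.2% of all genes, and without VAT ZT16 B 4 passed, beside 3.47%. DESeq2 called 3 members and 4.17% of all genes. The median amplitude was 0.53 over the members and 0.52 over all genes.

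In spleen 0 of 11 members passed edgeR's quasi-likelihood test (background 1.99%), 5 passed at an unadjusted p of 0.05 (background 15.6%), and DESeq2 called 2 (background 5.36%). mt-Nd4 had an amplitude of 0.51 ± 0.14 (adjusted p = 0.108) and mt-Nd2 one of 0.67 ± 0.19 (0.116), with peaks at ZT16.73 and ZT16.98. Without spleen ZT4 B 2 members passed, beside 3.07% of all genes, and without spleen ZT16 A 1 did, beside 3.58%. mt-Nd6 had 0.61 ± 0.2 (0.168) and mt-Nd1 0.54 ± 0.18 (0.205). The median amplitude was 0.59 over the members and 0.48 over all genes. For the difference in rhythm between VAT and spleen, 0 of 11 members passed by edgeR (background 0.00629%) or DESeq2 (background 0.138%). At an unadjusted p of 0.05 by edgeR 0 passed, beside a background of 9.09%. The difference of the cosine and sine terms had an amplitude of 0.65 ± 0.28 for mt-Nd2 (adjusted p = 0.608) and 0.25 ± 0.23 for mt-Co1 (0.882), by edgeR. These tests do not show that the tissues share a course.

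Other measures moved with ZT20. The slope of a library's levels on transcript length, centred within the tissue, was -0.079 and -0.092 in the VAT libraries of ZT20, the lowest of that tissue. In spleen it was -0.049 to -0.037 at ZT20, while the lowest spleen library was ZT16 B, at -0.066. The summed B cell markers averaged 296.9 CPM in VAT at ZT20, against 129.1 to 181.8 CPM at the other times, and 2624 CPM in spleen at ZT20, against 1428 to 2029 CPM. Spleen libraries overlapped here, with 2040 to 3084 CPM at ZT20 and up to 2344 CPM at ZT16. With the length slope as a covariate, added after seeing the data, the VAT amplitude of mt-Nd4 was 0.36 (edgeR adjusted p = 0.418). In that fit 0 members passed in VAT, beside 0.17% of all genes, against 1.88% of all genes without the covariate. Dusp1 and Junb, transcripts that respond to dissociation, stood at 8711 to 10047 CPM and 23551 to 24999 CPM in VAT at ZT20, against at most 7537 and 20998 CPM in the other VAT libraries, whereas Fos and Jun lay within the range of the other times. The nuclear RNA Neat1 was at 430.5 to 469.9 CPM in VAT at ZT20, against 565.6 to 876.9 CPM, and Malat1 at 6607 to 7024 CPM, against 4523 to 6469 CPM. The 10 most abundant nuclear genes held 15.07 to 15.95% of counts in VAT at ZT20, against 10.67 to 13% at the other times. In spleen the ZT20 ranges of these genes and of this share overlapped those of the other times. The part of these measures in the course was not tested.

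**Figure D5:**
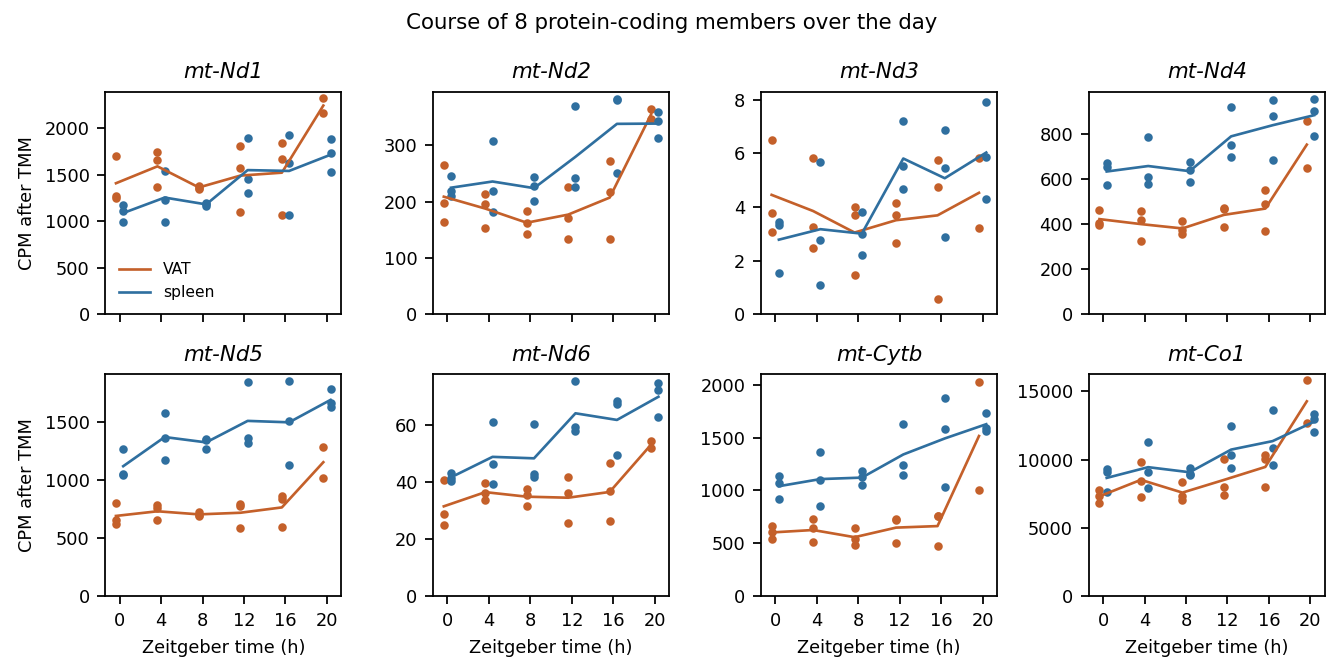
Level in CPM after TMM scaling (vertical, from 0) of 8 protein-coding members at 6 Zeitgeber times (horizontal), VAT in orange and spleen in blue; points are libraries and lines join group means. All 8 means are highest at ZT20 in both tissues, and the VAT points of ZT20 stand above the earlier ones for mt-Co1, mt-Cytb, mt-Nd1, mt-Nd2, mt-Nd4, mt-Nd5 and mt-Nd6. The share of all genes with such a course was not counted.

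Nuclear genes that serve mitochondrial gene expression were taken from 1 list of 52 genes, all of them tested. Between the tissues 7 were higher and 26 lower in VAT, beside 28.4% and 33.8% of all genes, and their median log2 fold change was -0.24. Of the 9 transcription genes 5 were lower and 0 higher, of the 7 replication genes 3 were lower and 1 higher, and of the 19 genes of RNA processing and stability 11 were lower and 3 higher. Of the 10 genes of rRNA modification and translation 6 were lower and 2 higher, and of the 7 regulators 1 was lower and 1 higher. Polrmt, the mitochondrial RNA polymerase, had a log2 fold change of -0.1 ± 0.1 (edgeR adjusted p = 0.362). It and Tfam are named for their roles, after their values were seen, and 10 called genes of the list had lower log2 fold changes than Tfam. Tfam, which packages mitochondrial DNA and opens its promoters, averaged 65.94 ± 11.44 CPM in VAT libraries and 108.1 ± 16.32 CPM in spleen libraries, a log2 fold change of -0.7 ± 0.07 with an edgeR adjusted p of 6.24e-11. The largest falls were those of Twnk, the helicase of mitochondrial DNA replication (-1.5 ± 0.19), Mterf1a, a transcription terminator family member (-1.49 ± 0.2), and Tefm, the elongation factor (-1.2 ± 0.16). Polg2, the accessory subunit of the mitochondrial DNA polymerase, was higher in VAT at 210.1 ± 38.13 CPM, against 38 ± 6.83 CPM in spleen, a log2 fold change of 2.44 ± 0.08. Fastkd3 (0.77 ± 0.12), a regulator of mitochondrial messenger RNA, and Gfm1 (0.33 ± 0.08), an elongation factor of mitochondrial translation, were the next largest rises.

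Scaled by library totals alone, 2 of the 52 genes were higher and 40 lower in VAT, where 71.4% of all genes were called and the median over all genes was -0.45. Gfm1 then had a log2 fold change of -0.01 (edgeR adjusted p = 0.892), while Polg2 had 2.1 and Fastkd3 0.43. Over the day 0 of the 52 passed in VAT by edgeR's quasi-likelihood test, with 8 at an unadjusted p of 0.05 and 2 by DESeq2, beside 1.88%, 17.5% and 4.17% of all genes. In spleen 1 of 52 passed, beside 1.99% of all genes: Grsf1, which binds mitochondrial RNA in its processing granules, with an amplitude of 1.26 ± 0.31 and a fitted peak at ZT7.66 (edgeR adjusted p = 0.0476). The difference in rhythm between VAT and spleen passed for 0 of 52 by edgeR and by DESeq2, beside 0.00629% and 0.138% of all genes. At an unadjusted p of 0.05 10 of 52 passed by edgeR, where 9.09% of all genes did. By DESeq2 9 did, and the share of all genes is not given for that count.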

How the data were processed

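RNA was sequenced from 35 libraries of sorted Tregs by oligo-dT priming and paired 25 nt reads. The deposited table holds raw read counts per gene symbol; the authors aligned to mm10 with STAR 2.7.3a and counted with featureCounts, per the submitters' processing notes. The counting annotation, strand setting and handling of reads with several matches: not given in the sources used here. Depth was 2069319 to 6260185 counts a library, without molecular identifiers, so intervals cover counting error only. From the counts, edgeR 4.0.16 (R 4.3.3, limma 3.58.1) fitted 15910 genes that passed filterByExpr, with TMM factors, a robust quasi-likelihood test and Benjamini-Hochberg adjustment over all of them at 0.05. The tissue contrast used the 12 tissue and time groups, and rhythm a 24 h cosine and sine per tissue, with amplitudes from peak to trough. DESeq2 1.42.0, other scalings and filters, a replicate block and leaving out each library were alternatives. Scripts were tested on simulated data. Only part of the simulated rhythms and rhythm differences was called there, so a gene that did not pass may still have one.

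Gene positions, lengths and sequences came from GENCODE M21 (GRCm38), in which 52936 symbols matched; nuclear copies were searched among its annotated transcripts, not in the whole genome. The naming rule took all protein-coding members, tRNA rows with a mean of at least 10 counts, and the 3 largest rises and falls called in the nuclear list; exceptions are marked where they stand. Members and lists were chosen with earlier results of these data known.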

Additional observations from a re-analysis of the deposited data

How the results depend on the processing

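The 6 members lower in VAT stayed at 6 when each library was left out. The count higher in VAT (1) was 0 with library totals, where 71.4% of all genes were called in either direction. It was 0 with at least 10 counts in 17 libraries (68.3%) and without the ZT20 libraries (59.5%). With the mitochondrial total as library size it was 3 (59.2%). Leaving out a library, with both VAT ZT20 libraries kept, gave 0 to 2, beside 61 to 62% of all genes. Rhythmic members in VAT (1) numbered 3 by DESeq2 (4.17% of all genes called). They numbered 0 with library totals (1.23%), the mitochondrial total (0.182%), the replicate block (0.779%) or no ZT20 libraries (0.119%). With VAT fitted alone (0.295%) or the length slope (0.17%) the number was also 0. At a filter of 1 count 6 of 25 tested passed (3.31%), at 10 counts in 17 libraries 2 (3.24%), and with the 6 times as a factor 5 (5.11%). Leaving out a library, with both VAT ZT20 libraries kept, gave 0 to 4, beside 0.515 to 6.2% of all genes. In spleen (0) rhythmic members numbered 2 by DESeq2 (5.36%) and fitted alone (3.18%), and 5 of 25 at a filter of 1 count (3.04%). For the difference (0) 2 of 25 passed at a filter of 1 count (3.26%). Leaving out a library, again with both VAT ZT20 libraries kept, gave 0 to 2 in spleen, beside 0.603 to 3.58% of all genes. For the difference it gave 0 to 0, beside 0 to 0.0566%. The mean share without mt-Co1, chosen after seeing the data, was 0.333% in VAT and 0.577% in spleen. For the share over all members, leaving out a library gave means of 1.072 to 1.135% in VAT and 1.698 to 1.751% in spleen, and for mt-Co1's part of it 69.99 to 70.53% in VAT and 66.49 to 66.8% in spleen. Directions turned for mt-Co1 (0.08) and mt-Nd3 (0.16) with the mitochondrial total, for mt-Nd1 (-0.14), mt-Tf (-0.27) and mt-Tl1 (-0.1) with library totals, and for mt-Tf (-0.02) without ZT20. With another scaling all genes move by nearly the same amount, as described above, so members near 0 can change sign. The cause of the turn of mt-Tf without ZT20 was not tested. Same-lettered VAT and spleen libraries did not deviate together (correlations -0.112 to 0.057 over 17 pairs), and the main fits used no pairing. These correlations cannot tell whether such libraries came from the same mouse, since technical variation could hide a shared origin.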

Other observations

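mt-Tp, the proline tRNA on the minus strand (chromosome M, 15356 to 15422), did not pass the filter on low counts and was singled out after its values were seen. It held 101 counts in VAT and 55 in spleen, a mean ± SD of 1.61 ± 0.56 CPM over the 17 VAT libraries and of 0.764 ± 0.464 CPM over the 18 spleen libraries. The VAT mean was higher at 6 of 6 times, and 6 VAT libraries lay above the highest spleen library. The difference was not tested.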
